A study of Mus musculus with 12 samples.

Results

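Cumulus cells of wild-type mice aged 6 months were compared with cumulus cells of wild-type mice aged 3 months, which make up 6 of the 12 libraries of the series (3 at each age). The other 6 libraries come from mice of the same 2 ages that lack ClpP, the proteolytic subunit of a protease of the mitochondrial matrix (KO). They enter here through the shared estimate of spread, through a test of whether the age difference depends on ClpP, and as values described beside wild type. All mice were C57BL/6J females given 5 IU of pregnant mare serum gonadotropin, a hormone preparation that drives follicle growth, and no ovulatory hormone is mentioned in the labels. Cells were collected 44 h after that injection by the protocol and 48 h after it by the series text. Each library pools 100 cumulus cells of 1 mouse, amplified with Smart-Seq2 and read on an Illumina HiSeq instrument. Values are FPKM (fragments per kilobase of transcript, scaled by the mapped fragments of the library), as the authors deposited them. The labels also give a passage of P1, although the protocol describes no culture. Dates of birth, collection and sequencing are not in the labels, so any of these that differed between the ages cannot be told apart from age.

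Cumulus cells are the granulosa-lineage cells that enclose the oocyte. They pass metabolites to it through gap junctions and respond to growth factors that it secretes, such as GDF9 and BMP15. After the ovulatory surge they build a hyaluronan-rich matrix, which is called cumulus expansion. Protein quality in any cell rests on chaperones, on the proteasome, which degrades ubiquitin-tagged proteins, and on stress pathways that adjust translation. The integrated stress response is the branch in which phosphorylation of the initiation factor eIF2 favours translation of ATF4, a transcription factor for amino acid synthesis, amino acid transport and tRNA charging genes.

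Between 9335 and 10339 genes reached 1 FPKM per wild-type library, and the spacing of low values put the depth at 0.68 to 1.0 of the deepest library. FPKM sums ran from 640006 to 883858. Small RNA entries held 25.7% of the sum in 3-month library 1 (21.9% in Mir7686 alone), 6.81% in 3-month library 3 and 1.63% or less in the other 4. Clpp itself stood at 88.2, 130 and 146 FPKM at 3 months and at 129, 124 and 114 at 6 months, against 0.769 to 6.63 in the KO libraries. It did not differ with age beyond the spread in wild type (log2 difference 0.04, SE 0.54, adjusted p = 0.988).

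Library 3 of each age stood apart over all genes or in its cell markers. Across the tested genes, 3-month library 3 correlated with the 6-month libraries 1, 2 and 3 at r = 0.966, 0.959 and 0.951, and with 3-month libraries 1 and 2 at 0.934 and 0.926. Libraries 1 and 2 of 3 months correlated with each other at 0.934. With 6-month libraries 1, 2 and 3, library 1 correlated at 0.934, 0.938 and 0.891 and library 2 at 0.932, 0.925 and 0.887. They were thus about as close to 6-month libraries 1 and 2 as to each other. All of these are correlations across genes, which are not independent replicates. Of the 855 genes whose values lay lower in all 6-month libraries than in any 3-month library, 3-month library 3 was the 3-month library nearest to the 6-month values in 62.6%. It was nearest in 55.5% of the 793 genes that lay higher.

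Both of these libraries were high in markers of other ovarian and blood cells. Granulosa and cumulus markers were detected at 1 FPKM or more for 16 or 17 of 17 genes in every library, and their summed level was 9550 to 12900 FPKM at 3 months and 7620 to 9580 at 6 months. Markers of luteal cells, which arise after ovulation, summed to 423, 204 and 3120 FPKM in 3-month libraries 1, 2 and 3 and to 904, 332 and 4770 at 6 months. In library 3 the largest were Hsd3b1 (2217 and 2822 FPKM at 3 and 6 months) and Cyp11a1 (547 and 695). Lhcgr, Star, Ptgfr, Prlr, Sfrp4, Parm1 and Mro were also highest in library 3 of each age. Akr1c18 (38.4, 12.1 and 12.4 FPKM at 3 months) and Cited4 (2.05, 21.6 and 4.38) did not follow that order. Theca and stromal markers summed to 39.4, 58.4 and 303 FPKM at 3 months and to 80.8, 51.4 and 469 at 6 months. The theca genes of this list differed between the library 3 samples. Cyp17a1 stood at 119 FPKM in 3-month library 3 and 12.7 in 6-month library 3, and Insl3 at 2.39 and 0.00167. In 6-month library 3 the largest members were Aldh1a1 (231 FPKM), Mgp (82.4) and Dcn (49). Leukocyte markers summed to 38.2, 34.5 and 101 and to 53.4, 30.4 and 700, and erythroid markers to 43.9, 4.38 and 744 and to 62.8, 29.3 and 1170. The erythroid markers did not run together. Hbb-b1 stood at 0.734, 1.98 and 448 FPKM at 3 months and at 1.09, 0.000479 and 745 at 6 months. Alas2 stood at 43.1, 2.4 and 12.2 and at 61.4, 29.3 and 8.93, and made up most of the erythroid sum outside library 3. Markers of surface and oviduct epithelium followed another order, with sums of 47.6, 258 and 45.9 FPKM at 3 months and 158, 23.8 and 102 at 6 months. Endothelial markers stayed between 5.32 and 28.7 FPKM in sum, and oocyte markers between 2.44 and 19.1. Some listed markers were under 0.1 FPKM in all 6 libraries. Among them were the oocyte genes Bmp15, Nlrp5, Ddx4, Figla and Oog1 and the leukocyte genes Cd3e and S100a9. The red cell gene Slc4a1, the stromal gene Gli1 and Pgr, which was counted in the luteal list, were others. In such pooled samples fewer cells of a type and less RNA per cell cannot be told apart. The part of other cells in each result below was not tested, except where a value without library 3 is given.

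**Figure D1:**
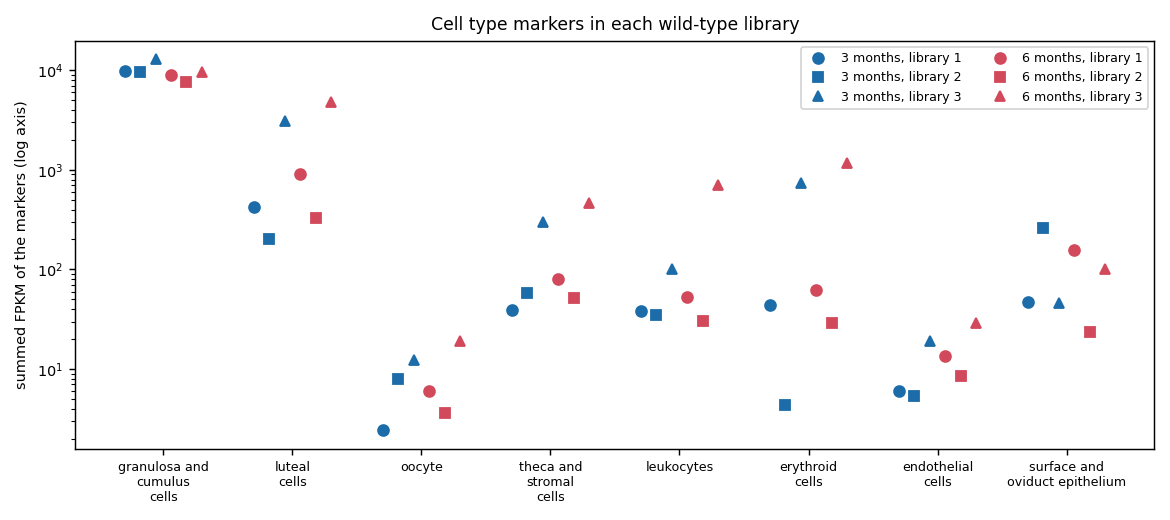
Summed FPKM (vertical axis, log scale) of 8 sets of cell type markers (horizontal axis) in the 6 wild-type libraries, blue for 3 months and red for 6 months, with a symbol for each library number. Granulosa and cumulus markers lie between 7620 and 12900 FPKM in all 6, while luteal, theca, leukocyte and erythroid sums are highest in library 3 of each age.

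Of 10157 genes tested, 1 was called higher at 6 months at an adjusted p under 0.05 (0.00985% of those tested) and none was called lower (0%). At an unadjusted p under 0.05, limma gave 308 higher (3.03%) and 495 lower (4.87%). Scaling the libraries to a common sum without small RNA entries turned that split to 340 higher and 233 lower, and quantile normalization gave 336 and 354. Values of the ages did not overlap for 793 genes higher at 6 months (7.81%) and 855 lower (8.42%). The median log2 difference over all tested genes was -0.00343. With 3 libraries against 3, an exact permutation test of a single gene cannot go below p = 0.1. Without 3-month library 3, 2 genes were called higher and 9 lower. The 9 were Fam110c, Fbxo32, Gadd45a, Osgin2, Stx5a, Sult1e1, Tubb2a, Wdyhv1 and Xbp1, and the gene added to the higher side was the transcription factor Klf2. Without library 3 of both ages, an alternative chosen after the data were seen, Osgin2 and Sult1e1 were called lower.

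Of the small nucleolar RNA genes, which guide chemical modification of ribosomal RNA, Snora30 and Snord17 were listed at 0 in all 3 libraries of 3 months and above 1 FPKM in all 3 of 6 months. Snora30 was listed at 219, 194 and 42 FPKM at 6 months and Snord17 at 1.84, 3.4 and 15.7. In KO, Snora30 was listed at 0 in 5 of 6 libraries. FPKM of such short entries depends strongly on the assumed fragment length.

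**Figure D2:**
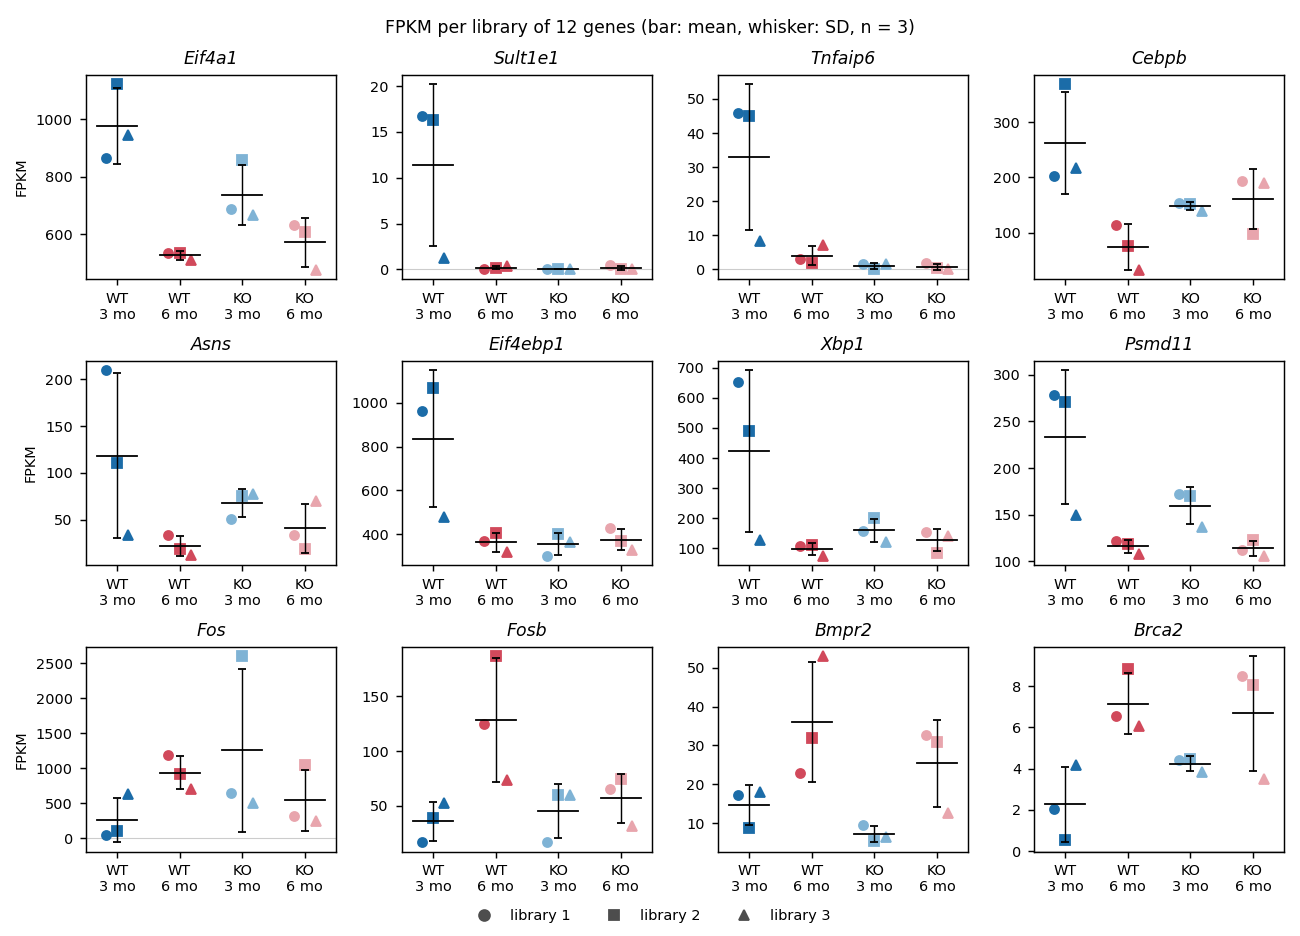
FPKM (vertical axes) of 12 genes in each of the 12 libraries by genotype and age (horizontal axes), with a symbol for each library number, with the mean drawn as a bar and the SD as a whisker (n = 3). In wild type, library 3 is the 3-month library closest to the 6-month libraries for all of the 12 genes except Eif4a1 and Cebpb, for Bmpr2 by a small margin.

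Genes of the ovulatory programme were mostly at lower values at 6 months, and none passed over all genes. Of the 27 genes in the cumulus expansion and ovulation list 15 were tested, and 10 of these lay lower and 5 higher. At an unadjusted p under 0.05 there were 5 lower and 0 higher, and 4 did not overlap on the lower side and 1 on the higher side, where 8.42% and 7.81% of all genes did not. Sult1e1, counted on the lower side, and Has2 reached 1 FPKM only in 3-month libraries. They passed the filter only through the age where they were high, so they could not have counted as higher. The median log2 difference of the 15 tested genes of the list was -0.58. It was -0.17 without 3-month library 2, -0.96 without 6-month library 3 and -1.07 without library 3 of both ages. It was -0.29 with a filter of 5 FPKM and -0.94 with array weights.

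Sult1e1 (chromosome 5, 87575969 to 87591594, minus strand), the sulfotransferase that inactivates estrogens, stood at 16.7, 16.3 and 1.22 FPKM at 3 months and at 0, 0.153 and 0.369 at 6 months. Its 3-month libraries 1 and 2 were far above the other 4, of which 3-month library 3 was the highest (log2 difference -2.92, SE 0.63, adjusted p = 0.584). Tnfaip6 (chromosome 2, 52038009 to 52056686, plus strand), which cross-links hyaluronan in the expanding matrix, stood at 45.9, 44.9 and 8.36 FPKM at 3 months and at 2.91, 1.91 and 7.24 at 6 months. The ages did not overlap, but 3-month library 3 and 6-month library 3 were close (log2 difference -2.58, SE 0.67, adjusted p = 0.584). The gene Has2, whose enzyme makes the hyaluronan, stood at 23.1, 2.06 and 2.08 FPKM at 3 months and at 0.486, 0.312 and 0.825 at 6 months. Ptgs2, the inducible prostaglandin synthase, stood at 37.6, 9.06 and 0.0847 FPKM at 3 months and at 0.0135, 0.147 and 5.23 at 6 months, so its ages overlapped. High values of these matrix and prostaglandin genes were thus found in 3-month library 1, and for Sult1e1 and Tnfaip6 also in library 2. Receptor genes of the list had values on both sides. Egfr, the receptor of EGF-like ligands, stood at 6.18, 1.67 and 4.91 FPKM at 3 months and at 6.6, 8.46 and 8.89 at 6 months. Ptger2, a receptor of prostaglandin E2, stood at 2.83, 1.17 and 0.919 FPKM at 3 months and at 0.238, 0.34 and 1.31 at 6 months, so its ages overlapped. Lhcgr, the luteinizing hormone receptor and also a luteal marker, reached 34.5 and 151 FPKM in library 3 of the younger and older group and 0.81 to 10.4 in the other 4, where luteal sums were lower as well.

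Targets of the integrated stress response stood lower at 6 months as a group. Of 36 genes in the list 29 were tested, and 25 of them lay lower and 4 higher. None passed over all genes, 9 reached an unadjusted p under 0.05 on the lower side and 0 on the higher side, and 8 of 29 had non-overlapping ages, all lower, where 8.42% of all genes did. The median log2 difference was -0.82. It was -0.5 without 3-month library 1 and between -0.71 and -1.15 without any other single library. Mean levels of the list, centred on the 6 wild-type libraries, were 1.18, 0.41 and -0.29 log2 units at 3 months and -0.18, -0.23 and -0.89 at 6 months, so 3-month library 3 lay among the 6-month libraries.

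The transcription factor genes come first. Atf4 itself stood at 694, 445 and 175 FPKM at 3 months and at 205, 229 and 133 at 6 months. Cebpb (chromosome 2, 167688915 to 167690418, plus strand), a bZIP factor that also belongs to the ovulation list, stood at 202, 370 and 218 FPKM at 3 months and at 114, 75.3 and 32.1 at 6 months. All 3-month libraries, library 3 included, lay well above the 6-month libraries for Cebpb (log2 difference -1.94, SE 0.43, adjusted p = 0.584). Cebpb was also picked by a rule that takes only genes with non-overlapping ages. Among target genes, Eif4ebp1, which encodes a repressor of cap-dependent translation, stood at 964, 1067 and 480 FPKM at 3 months and at 368, 406 and 319 at 6 months (log2 difference -1.12, SE 0.29, adjusted p = 0.584). Asns, which makes asparagine, stood at 210, 110 and 34.3 FPKM at 3 months and at 33.9, 19.2 and 12.9 at 6 months (log2 difference -2.13, SE 0.62, adjusted p = 0.609). Its 3-month library 3 exceeded the highest 6-month library by a margin that is small beside the gap to library 1. Slc3a2, the shared chain of several amino acid transporters, stood at 248, 170 and 101 FPKM at 3 months and at 83.3, 73.2 and 60.6 at 6 months. Chac1, which degrades glutathione, ran from 158 FPKM in 3-month library 1 through 15.6 in library 2 to 0.494 in library 3, and from 0.0569 to 3.41 at 6 months. Gdf15, a secreted stress cytokine, stood at 3.24, 5.67 and 2.71 FPKM at 3 months and at 0.753, 1.05 and 0.443 at 6 months. Atf4, Slc3a2 and Chac1 were chosen after their values were seen.

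Aminoacyl tRNA synthetases attach amino acids to tRNAs, and several of the cytosolic enzymes are known ATF4 targets. All 20 in the list were tested, and 17 lay lower and 3 higher at 6 months. None passed over all genes, and 6 reached an unadjusted p under 0.05 and 6 had non-overlapping ages, all of them lower, beside 4.87% and 8.42% of all genes. The median log2 difference was -0.7, and -0.41 without 3-month library 1. Rars, the arginine enzyme, stood at 81.8, 130 and 70.8 FPKM at 3 months and at 47.8, 39.1 and 47.6 at 6 months (log2 difference -1.01, SE 0.3, adjusted p = 0.619). Farsb, a subunit of the phenylalanine enzyme, stood at 78, 86.2 and 71.1 FPKM at 3 months and at 57.5, 37.4 and 34.4 at 6 months. For both genes every 3-month library lay above every 6-month library. Cars, the cysteine enzyme and also a member of the stress response list, was uneven, with 46.5, 19.4 and 8.97 FPKM at 3 months and 7.37, 7.36 and 3.53 at 6 months. The threonine enzyme gene Tars stood at 93, 76.7 and 30.7 FPKM at 3 months and at 29.8, 28.9 and 22.9 at 6 months. The glycine enzyme gene Gars stood at 157, 93.7 and 47 FPKM at 3 months and at 60.9, 44.2 and 25.4 at 6 months, with 3-month library 3 below the highest 6-month library.

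Promoters of 4 of these genes are shown because each of the 4 holds a short element that a minority of the searched members have. C/EBP-ATF type elements, which heterodimers of ATF4 and C/EBP factors are known to bind, were searched as TGATGNAA on both strands, in RefSeq windows on GRCm38.p6 from 250 bases before to 50 bases after the annotated start. The element was found in 1304 of 32851 windows (3.97%). It was found in 5 of 27 windows of the 22 tested stress response genes that matched the RefSeq table (18.5%: Atf3, Chac1, Asns, Nupr1 and Vldlr) and in 5 of 12 windows of the 12 synthetase genes that matched (41.7%: Yars, Gars, Aars, Iars and Tars). Of these genes, Atf3 and Vldlr had positive log2 differences between the ages, of 0.52 and 0.1. The others, with the 4 shown among them, had negative ones, from -0.51 in Yars to -3.14 in Chac1. Each sequence reads from 5′ to 3′ on the gene's strand, and capitals mark the match. It starts at position -23 from the gene start in Asns (chr6:7693160-7693459, minus strand), -193 in Chac1 (chr2:119350992-119351291, plus strand), -30 in Gars (chr6:55037751-55038050, plus strand) and -15 in Tars (chr15:11399609-11399908, minus strand). In Chac1, Gars and Tars the match is on the opposite strand, so its reverse complement appears in the printed sequence. A match is a description of the letters and shows no binding.
Asns: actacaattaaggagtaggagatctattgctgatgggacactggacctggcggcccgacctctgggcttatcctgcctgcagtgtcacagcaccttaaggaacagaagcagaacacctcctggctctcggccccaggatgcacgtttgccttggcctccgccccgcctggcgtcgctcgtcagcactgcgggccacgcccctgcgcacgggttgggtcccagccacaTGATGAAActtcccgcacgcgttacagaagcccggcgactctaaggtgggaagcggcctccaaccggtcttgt
Chac1: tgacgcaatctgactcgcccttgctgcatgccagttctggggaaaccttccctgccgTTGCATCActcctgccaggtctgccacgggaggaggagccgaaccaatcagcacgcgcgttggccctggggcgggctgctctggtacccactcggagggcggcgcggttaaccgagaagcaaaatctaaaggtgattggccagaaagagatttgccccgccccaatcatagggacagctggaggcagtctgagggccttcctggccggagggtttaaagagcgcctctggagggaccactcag
Gars: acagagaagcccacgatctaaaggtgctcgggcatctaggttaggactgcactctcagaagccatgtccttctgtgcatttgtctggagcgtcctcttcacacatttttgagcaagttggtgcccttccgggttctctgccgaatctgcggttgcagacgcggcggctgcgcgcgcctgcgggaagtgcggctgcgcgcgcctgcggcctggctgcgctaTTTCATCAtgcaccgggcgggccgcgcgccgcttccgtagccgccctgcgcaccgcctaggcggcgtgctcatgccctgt
Tars: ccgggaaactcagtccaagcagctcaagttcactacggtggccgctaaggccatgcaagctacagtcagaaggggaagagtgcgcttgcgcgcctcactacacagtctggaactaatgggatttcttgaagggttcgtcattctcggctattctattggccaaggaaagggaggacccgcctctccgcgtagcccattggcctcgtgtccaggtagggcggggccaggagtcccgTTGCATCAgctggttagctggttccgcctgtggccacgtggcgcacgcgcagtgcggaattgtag

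Proteasome subunits lay lower at 6 months in nearly every member. All 34 were tested, and 32 lay lower and 2 higher at 6 months. None passed over all genes, 10 reached an unadjusted p under 0.05 and 12 had non-overlapping ages, all lower, beside 4.87% and 8.42% of all genes. The median log2 difference was -0.45, and it lay between -0.32 and -0.6 over all single-library and library 3 omissions and between -0.32 and -0.48 over the other settings. Mean centred levels were 0.13, 0.51 and 0.07 log2 units at 3 months and -0.17, -0.36 and -0.19 at 6 months. The ages of this list did not overlap, and 3-month library 3 lay on the 3-month side. The ages also did not overlap for mitochondrial proteostasis genes (0.07, 0.03 and 0.06 against 0.01, -0.1 and -0.06) and for splicing factors (0.12, 0.18 and -0.04 against -0.05, -0.05 and -0.17), which are not among the lists plotted.

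Most of the named subunits belong to the regulatory particle that recognizes and unfolds tagged proteins. Psmd11 (chromosome 11, 80428615 to 80473248, plus strand), a scaffold subunit of its lid, stood at 278, 270 and 150 FPKM at 3 months and at 122, 118 and 108 at 6 months. Psmd11 3-month library 3 lay between the other 3-month libraries and the 6-month libraries (log2 difference -0.94, SE 0.26, adjusted p = 0.584). Psmd13, another lid subunit, stood at 101, 115 and 95.6 FPKM at 3 months and at 78, 60.3 and 36 at 6 months (log2 difference -0.89, SE 0.31, adjusted p = 0.624). Psmc1, an ATPase of the base, stood at 312, 322 and 262 FPKM at 3 months and at 205, 149 and 168 at 6 months (log2 difference -0.78, SE 0.28, adjusted p = 0.624). Its lowest 3-month value, in library 3, was clear of all 6-month values. The ATPase genes Psmc2, Psmc3 and Psmc4 also had non-overlapping ages, with log2 differences of -0.63, -0.63 and -0.55. Psma1, a subunit of the barrel-shaped core, stood at 711, 1378 and 869 FPKM at 3 months and at 558, 509 and 689 at 6 months. The antioxidant response type element TGACNNNGC, searched because proteasome genes are known NRF1 and NRF2 targets, was in 4 of 31 proteasome windows (12.9%) and in 12.4% of all windows, so the shares were close.

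**Figure D3:**
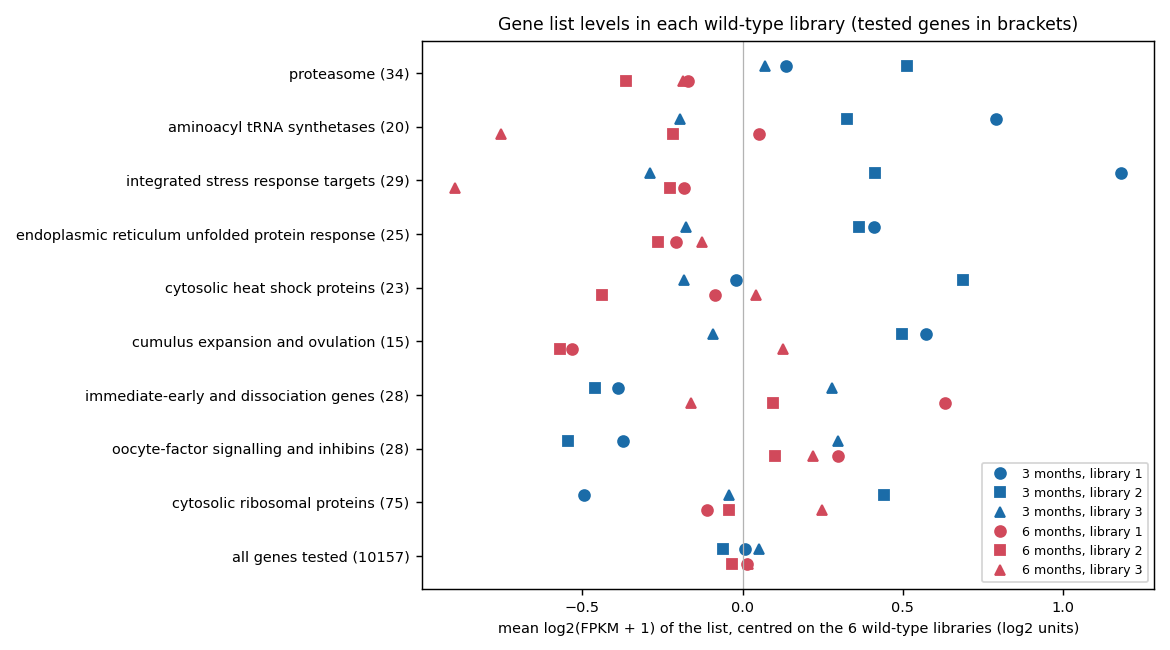
Mean log2(FPKM + 1) of 9 gene lists and of all 10157 tested genes, centred on the 6 wild-type libraries (horizontal axis, log2 units), with blue for 3 months, red for 6 months and a symbol for each library number. Proteasome levels of the ages do not overlap, while in the other lists 3-month library 3 (blue triangle) or 6-month library 3 (red triangle) lies within the range of the other age.

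Chaperone genes of the cytosol and the endoplasmic reticulum also stood mostly lower. Of 25 cytosolic heat shock genes 23 were tested, with 20 lower and 3 higher and a median log2 difference of -0.39. This median was -0.13 without 3-month library 2 and -0.64 without library 3 of both ages. At an unadjusted p under 0.05 there were 4 lower and 1 higher, where 4.87% and 3.03% of all genes were. Dnajb6, a co-chaperone that holds aggregation-prone proteins, stood at 228, 195 and 149 FPKM at 3 months and at 90.8, 99.8 and 145 at 6 months. Cct5, a subunit of the ring-shaped chaperonin that folds actin and tubulin, stood at 445, 597 and 406 FPKM at 3 months and at 370, 287 and 296 at 6 months. Hsf2, a heat shock transcription factor, went the other way in value, with 3.19, 3.45 and 3.02 FPKM at 3 months and 5.08, 6.21 and 9.91 at 6 months.

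Of 25 genes of the unfolded protein response of the endoplasmic reticulum 20 lay lower and 5 higher, with a median of -0.34 that became -0.62 without 3-month library 3, -0.61 without library 3 of both ages and -0.52 with a filter of 5 FPKM. Xbp1, the transcription factor of its IRE1 branch, stood at 653, 490 and 129 FPKM at 3 months and at 108, 113 and 74.7 at 6 months. Xbp1 3-month library 3 was close to the 6-month values (log2 difference -1.82, SE 0.5, adjusted p = 0.584). Sdf2l1, a chaperone cofactor, stood at 87.3, 172 and 98.5 FPKM at 3 months and at 93.8, 49.1 and 25.9 at 6 months. Hyou1, a large chaperone of the same compartment, stood at 1.14, 1.88 and 0.963 FPKM at 3 months and at 2.74, 2.97 and 3.15 at 6 months.

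Genes outside the lists above were also named, picked by a rule that takes the smallest p-values among genes with non-overlapping ages, and none passed over all genes. On the lower side, Eif4a1, the helicase that unwinds mRNA leaders during initiation, stood at 863, 1123 and 944 FPKM at 3 months and at 533, 534 and 509 at 6 months (log2 difference -0.88, SE 0.21, adjusted p = 0.584). Bzw1, a regulator of start codon choice, stood at 313, 326 and 294 FPKM at 3 months and at 155, 167 and 181 at 6 months (log2 difference -0.89, SE 0.21, adjusted p = 0.584). For both genes the libraries within an age lay closer to each other than the ages did, library 3 included. The rule that picked them favours such a pattern, so it is no separate evidence on library 3. Of 32 splicing factor genes 21 lay lower and 11 higher, with 2 lower and 0 higher at an unadjusted p under 0.05 (4.87% and 3.03% of all genes). Their median was -0.1, 0.05 after quantile normalization and -0.2 to -0.09 over the omission of single libraries. Hnrnpk, an RNA-binding protein of this list, stood at 867, 934 and 724 FPKM at 3 months and at 559, 411 and 352 at 6 months. Sf3b4, a component of the U2 splicing particle, stood at 111, 133 and 121 FPKM at 3 months and at 68.1, 57.2 and 31.5 at 6 months.

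On the higher side, Qk, which encodes the RNA-binding protein quaking, stood at 8.72, 9.76 and 10.9 FPKM at 3 months and at 19.6, 23.4 and 22.3 at 6 months (log2 difference 1.08, SE 0.24, adjusted p = 0.584). Taf15, an RNA-binding protein that associates with the transcription machinery, stood at 6.58, 5.25 and 6.6 FPKM at 3 months and at 16.3, 19.3 and 28 at 6 months (log2 difference 1.61, SE 0.4, adjusted p = 0.584). For Qk each age formed a tight group, a pattern that the naming rule favours, while Taf15 ran from 16.3 to 28 FPKM at 6 months. The nuclear RNA-processing genes Acin1 and Pnisr had log2 differences of 0.93 and 0.91. Macf1, a very large protein that links actin to microtubules, stood at 2.63, 3.82 and 3.89 FPKM at 3 months and at 7.25, 11.9 and 7.67 at 6 months. Rhob, a small GTPase of endosomes and actin, stood at 10.2, 7.9 and 18.5 FPKM at 3 months and at 33.6, 36.8 and 25.1 at 6 months. Genes with higher values at 6 months tended to have long transcripts, with a median longest transcript of 5351 bp for the 793 that did not overlap against 2709.5 bp for the 855 on the lower side, and the part of length was not tested. The remaining genes of this side, Fnbp4, Myo10, Trf, Glg1 and Npm3, had log2 differences of 1.34, 1.31, 2.42, 1.16 and 1.08. On the lower side, Osgin2, a growth inhibitor gene, stood at 140, 192 and 26.8 FPKM at 3 months and at 17, 11.5 and 12.6 at 6 months. Its log2 difference was -2.65, and those of the others on this side, Slc35f6, Tmbim1, Stx5a, Zfp35, Fam110c and Pigu, were -1.67, -1.94, -1.59, -1.76, -2.9 and -0.86.

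**Figure D4:**
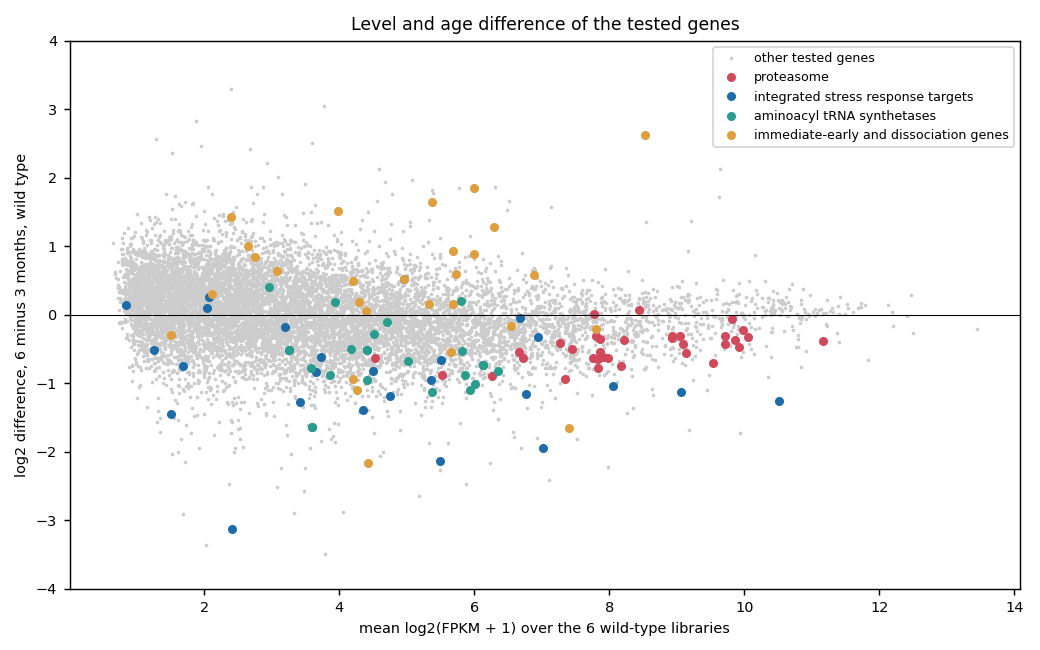
Log2 difference between 6 and 3 months in wild type (vertical axis) against the mean log2(FPKM + 1) of the 6 wild-type libraries (horizontal axis), with 1 point per tested gene and 4 lists in colour. Proteasome genes (red) and stress response targets (blue) lie mostly below 0 and immediate-early genes (orange) mostly above it, and 2 genes, Snora30 among them, lie above the range drawn, which ends at 4.

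Immediate-early genes encode transcription factors that are induced within minutes by signalling and also by cell dissociation. Of 32 in the list 28 were tested, with 20 higher and 8 lower at 6 months and a median log2 difference of 0.5, which was 0.32 without 6-month library 1. None passed over all genes, 5 reached an unadjusted p under 0.05 on the higher side and 2 on the lower, and 7 and 2 had non-overlapping ages. Of all genes, 3.03% and 4.87% reached that p on the higher and lower side and 7.81% and 8.42% did not overlap, so the lower counts are near those shares. Fos (chromosome 12, 85473890 to 85477273, plus strand), a subunit of the AP-1 factor, stood at 47.1, 108 and 628 FPKM at 3 months and at 1182, 914 and 709 at 6 months (log2 difference 2.62, SE 0.87, adjusted p = 0.624). Its 3-month library 3 was far above the others of its age and close to 6-month library 3. Fosb, its relative, stood at 16.8, 38.6 and 52.2 FPKM at 3 months and at 125, 187 and 73.6 at 6 months (log2 difference 1.85, SE 0.56, adjusted p = 0.62). Klf2 stood at 13.4, 10.8 and 75.9 FPKM at 3 months and at 100, 77.2 and 49.3 at 6 months, so 3-month library 3 overlapped the older group. Klf2 was chosen after its values were seen. The growth regulator Myc lay on the other side, with 86.5, 31.9 and 32.1 FPKM at 3 months and 12.6, 8.23 and 7.47 at 6 months (log2 difference -2.16, SE 0.65, adjusted p = 0.619).

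Genes through which cumulus cells receive oocyte and hormone signals had small positive medians. Of 31 genes of oocyte-factor signalling and inhibins 28 were tested, with 16 higher and 12 lower, 3 with an unadjusted p under 0.05 and 3 with non-overlapping ages, all higher. On that side 3.03% and 7.81% of all genes did so, and the count without overlap is near that share. The median was 0.33, but 0.08 without 3-month library 2, 0.16 without 6-month library 3 and 0.16 with array weights. Bmpr2 (chromosome 1, 59763400 to 59879014, plus strand), the type II receptor through which GDF9 and BMP15 signal, stood at 17.2, 8.72 and 18 FPKM at 3 months and at 22.9, 31.9 and 53 at 6 months (log2 difference 1.22, SE 0.44, adjusted p = 0.624). Grem1, a secreted BMP antagonist induced by oocyte factors, stood at 13.3, 2.21 and 32.5 FPKM at 3 months and at 52, 26.7 and 85.5 at 6 months, and its ages overlapped. Inha, the inhibin alpha subunit, stood at 3382, 4943 and 5791 FPKM at 3 months and at 3711, 2715 and 2419 at 6 months.

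Of 12 gonadotropin and steroid receptor genes 10 were tested, with 9 higher and 1 lower and a median of 0.32, which was 0.15 without 3-month library 2 and 0.52 without 3-month library 3. Prlr, the prolactin receptor and also a luteal marker, stood at 0.829, 1.85 and 24.2 FPKM at 3 months and at 8.44, 11.4 and 207 at 6 months, highest in the libraries with high luteal sums. Nr5a2, the nuclear receptor LRH-1 that granulosa cells need for ovulation, stood at 3.81, 5.59 and 10.4 FPKM at 3 months and at 10.9, 12.9 and 24.8 at 6 months (log2 difference 1.19, SE 0.39, adjusted p = 0.624). Library 3 was the highest for Nr5a2 at each age.

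DNA repair genes were evenly split, and their median moved with 6-month library 3. Of 28 tested 14 lay higher and 14 lower (median -0.00365), and the median was 0.3 without 6-month library 3 and between -0.09 and 0.09 without any other single library. Of 45 cell cycle genes tested 20 lay higher and 25 lower (median -0.12), and the median ran from -0.33 without 6-month library 1 to 0.05 without 6-month library 3. Atm, the kinase that signals double-strand breaks, stood at 0.533, 0.901 and 1.14 FPKM at 3 months and at 2.74, 3.16 and 2.84 at 6 months (log2 difference 1.09, SE 0.31, adjusted p = 0.584). Brca2, a gene of homologous recombination, stood at 2.06, 0.534 and 4.19 FPKM at 3 months and at 6.57, 8.83 and 6.05 at 6 months (log2 difference 1.48, SE 0.44, adjusted p = 0.619). The excision repair gene Ercc1 stood at 51.7, 69.1 and 54.6 FPKM at 3 months and at 43.6, 38.9 and 30.2 at 6 months. None of these passed over all genes, and Atm is at levels where few reads decide a value. Gadd45a, a p53 target that halts the cycle, stood at 51.1, 79.5 and 16.2 FPKM at 3 months and at 11.2, 11 and 12.5 at 6 months. Trp53, which encodes p53, stood at 64.8, 92.5 and 74.4 FPKM at 3 months and at 59.1, 51.1 and 28 at 6 months. The kinase inhibitor genes Cdkn1b and Cdkn2c had log2 differences of 1.09 and 1.76 and Cdk2 of -0.93.

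Glycolysis genes had mostly lower values at 6 months, with 16 of 21 lower (median -0.36), none with an unadjusted p under 0.05 and none without overlap. Their median was 0.02 without 6-month library 3, -0.23 without 3-month library 1 and -0.62 without 3-month library 3. Medians of the respiratory chain and of both kinds of ribosome were nearer 0 and turned sign with single libraries. Of 75 nuclear-encoded respiratory chain genes 46 lay higher and 29 lower (median 0.07), with medians of -0.17 without 3-month library 1 and -0.13 without 6-month library 3 and of up to 0.24 without another library. Of 77 mitochondrial ribosome genes 36 lay higher and 41 lower (median -0.05), with medians of -0.17 without 3-month library 1 and 0.08 without 3-month library 3. Of 75 cytosolic ribosomal protein genes 56 lay higher and 19 lower, with a median of 0.07 that was -0.18 without 3-month library 1 and 0.32 without 3-month library 2. Complex III core subunit genes lay against the respiratory chain median, with Uqcrc2 at 175, 224 and 183 FPKM at 3 months and at 149, 129 and 116 at 6 months. Antioxidant genes had 26 of 35 lower (median -0.12), with 0.04 after quantile normalization and -0.39 to -0.01 over the omission of single libraries. Autophagy and lysosome genes had 22 of 29 lower (median -0.24), with -0.09 after quantile normalization and -0.39 to -0.14 over these omissions. No member of any list passed over all genes.

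The same age difference was measured without ClpP in the 6 KO libraries, which share no library with the wild-type comparison. The test of the difference between the age differences called 1 of 10157 genes (0.00985%), the small nucleolar RNA entry Snora65. Library 3 of each age also stood apart in KO. Granulosa and cumulus markers summed to 4530 and 5370 FPKM in these 2 libraries and to 11100 to 13400 in the other 4, and luteal markers to 9560 and 15600 against 162 to 1370. Theca and stromal markers summed to 2470 and 3300 FPKM against 77.6 to 196, and leukocyte markers to 309 and 1860 against 6.67 to 122. KO medians without library 3 of both ages, an alternative chosen after the data were seen, follow in brackets. The KO medians were -0.24 (-0.33) for the proteasome, -0.64 (-0.85) for tRNA synthetases and -0.64 (-0.67) for cytosolic heat shock genes. They were -0.27 (-0.41) for stress response targets, -0.11 (-0.46) for the endoplasmic reticulum response and 0.36 (0.25) for oocyte-factor signalling. Glycolysis had -0.6 (-0.82), the respiratory chain 0.39 (0.28), DNA repair -0.3 (-0.35) and the cell cycle -0.48 (-0.42). The other lists described here whose KO median had the sign of wild type were hormone receptors with 0.33 (0.56), mitochondrial proteostasis with -0.29 (-0.41), splicing factors with -0.08 (-0.26), autophagy with -0.07 (-0.12) and cytosolic ribosomal proteins with 0.06 (-0.05). Among the lists described here, the sign was opposite to wild type for cumulus expansion with 0.2 (0.29), immediate-early genes with -0.54 (-0.29), antioxidant defence with 0.09 (0.01) and the mitochondrial ribosome with 0.01 (-0.06), and these differences of medians were not tested. Bzw1, Rars and Psmc1 had log2 differences of -0.7, -0.78 and -0.87 in KO, and Taf15, Macf1 and Bmpr2 of 1.32, 1.45 and 1.61. Cebpb, Sult1e1 and Eif4ebp1 had 0.05, 0.21 and 0.08 in KO. Sult1e1 was listed there at 0, 0 and 0 FPKM at 3 months and at 0.443, 0 and 0.0705 at 6 months. At such levels a fall with age could not be seen in KO, so its difference between genotypes does not show that the fall depends on ClpP. Fos had -1.11 and Rhob -0.37, with signs opposite to wild type. Htr1d, a serotonin receptor, stood at 4.77, 7.17 and 3.23 FPKM at 3 months and at 0.412, 0.816 and 0.12 at 6 months in wild type, and its difference between genotypes did not pass either (log2 2.91, adjusted p = 0.675). In KO, Htr1d stood at 0, 0.471 and 0 FPKM at 3 months and at 1.57, 0.313 and 1.65 at 6 months. A fall with age could not be seen in KO from such 3-month levels. Htr1d passed the filter only through the 3-month wild-type libraries, where it was high. None of the genes listed here with KO values passed the test of the difference, whose log2 value was -3.73 for Fos and 3.13 for Sult1e1. The difference was also called for Klf2, Osgin2 and Sult1e1 when 3-month wild-type library 3 was left out (log2 -4.13, 3.43 and 4.12; adjusted p = 0.0156, 0.0156 and 0.00593).

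**Figure D5:**
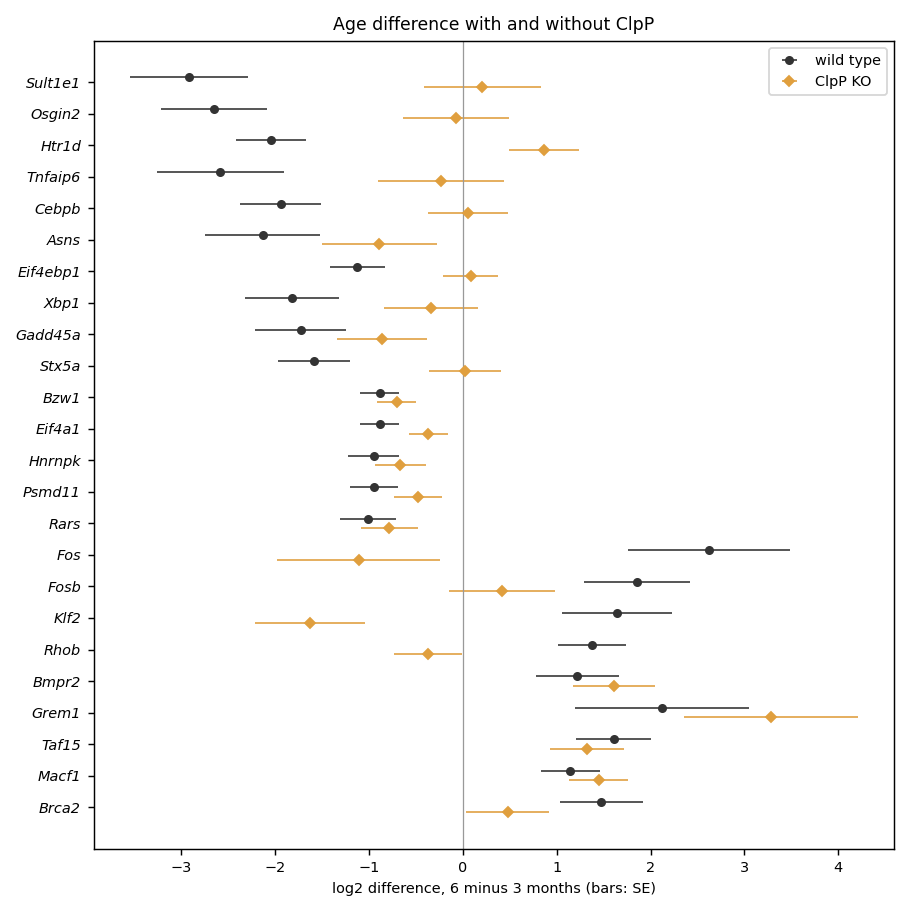
Log2 difference between 6 and 3 months (horizontal axis, whiskers for the SE of the fit, n = 3 libraries per group) of 24 genes in wild type (dark circles) and in mice without ClpP (orange diamonds). Bzw1, Rars, Taf15, Macf1, Bmpr2 and Grem1 have the same sign with and without ClpP. Without ClpP, Cebpb, Sult1e1 and Eif4ebp1 are near 0, with Sult1e1 under 1 FPKM in every library, and Fos, Klf2 and Rhob have the opposite sign. None of these differences between genotypes passed over all genes with all libraries.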

How the data were processed

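The deposited table holds FPKM values of 23997 rows, which the authors made with Cufflinks 1.2.1, TopHat2 2.0.10, SAMtools 0.1.18 and Bowtie2 2.1.0 (alongside cutadapt and FastQC) on GRCm38, per the submitters' processing notes. In the sources used here their gene annotation is not given, and 27 symbols that had turned into dates were left unassigned. Without counts the error of a single value is unknown, and p-values measure the spread between animals. Genes with at least 1 FPKM in at least 3 of the 6 wild-type libraries were tested as log2(FPKM + 1), a pseudocount that shrinks differences of low genes. The test was limma 3.58.1 in R 4.3.3, with 4 group means over 12 libraries (8 residual and 4.07 prior degrees of freedom), 2-sided, with Benjamini-Hochberg adjustment over 10157 genes and a threshold of 0.05.

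The comparison, gene lists and naming rule were chosen with earlier results of these data known. The rule named Clpp, up to 12 genes per direction (called genes first, then smallest p among genes with non-overlapping ages and a mean of at least 5 FPKM), 3 genes per list and 3 per direction of the genotype test. Other genes named were chosen after their values were seen. Coordinates are from GENCODE M21 (138 of 139 names matched) and promoters from RefSeq. Alternatives changed the pseudocount, filter, scaling, fit and libraries. The 1 gene called higher and a few others this rule would name are left out of the text.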

Additional observations from a re-analysis of the deposited data

Results flagged for a closer look

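The age difference of Snora65, a small nucleolar RNA entry, differed between genotypes in the test of the difference itself (KO minus wild type -5.32 on the log2(FPKM + 1) scale, limma adjusted p = 0.0113). Wild-type values were 15.3, 24.7 and 23.6 FPKM at 3 months and 26.2, 23.2 and 50.5 at 6 months, and KO values 15.9, 22.3 and 48.4 at 3 months, while all 3 KO libraries of 6 months list it at 0. The wild-type ages overlapped. The call was not made without the filter on low values, without 3-month wild-type library 1 or without library 3 of both wild-type ages.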

How the results depend on the processing

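The count of genes called higher was 2 with the 6 wild-type libraries alone (Snora30 added, adjusted p = 0.00412) and 2 with the replicate block (Prlr added, adjusted p = 0.046), and 1 to 2 when a wild-type library was left out. Genes called lower numbered 0 to 9 when a library was left out, the 9 without 3-month library 3, and 2 without library 3 of both ages. Genes whose age difference differed by genotype numbered 0 without the filter on low values, 0 to 4 when a wild-type library was left out (0 without 3-month library 1 and 4 without 3-month library 3: Klf2, Osgin2, Snora65 and Sult1e1) and 2 without library 3 of both ages (Klf2 and Sult1e1). Clpp turned sign, to -0.173, without 3-month library 1 and lay at up to 0.188 without another library. At an unadjusted p under 0.05, array weights gave 737 higher and 944 lower genes against 308 and 495, the filter of 5 FPKM 136 and 435, no filter 565 and 624, and the omission of single wild-type libraries 149 to 553 and 221 to 707. For the block, the deviations of same-numbered libraries correlated at r = 0.269 across genes for library 3, which matched its own number best, and at 0.035 and 0.0243 for libraries 1 and 2, which did not. The numbers were therefore not taken as pairing. The oocyte marker list gives no value with the filter of 5 FPKM, and the genotype test none with the 6 wild-type libraries alone. Depth in reads is not known, so genes near 1 FPKM carry a counting error that is not measured here.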

Other observations

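The wild-type difference varied with transcript length, though not steadily from short to long, a pattern noticed in the data and given as a description. The 793 genes that lay higher in all 6-month libraries had a median longest annotated transcript of 5351 bp, against 3182 bp for all tested genes and 2709.5 bp for the 855 that lay lower. Transcripts over 4000 bp made up 70.6%, 32.9% and 18.7% of these sets, and the median level was 4.54, 9.31 and 28.5 FPKM. A length was found for at least 95.2% of each set. Of the 493 genes with a transcript of 8000 bp or more, the median log2 difference was 0.44 in wild type and 0.47 in KO, against -0.12 and -0.17 for 2000 to 4000 bp. The 582 genes under 1000 bp also had positive medians, of 0.11 in wild type and 0.28 in KO. Medians were -0.12 and -0.06 for 1000 to 2000 bp and 0.13 and 0.12 for 4000 to 8000 bp. Median centred levels of the 493 longest genes were -0.24, -0.21 and -0.2 log2 units in 3-month libraries 1, 2 and 3 and 0.08, 0.34 and 0.2 at 6 months, so here 3-month library 3 lay with its own age. The longest transcripts of Macf1, Bmpr2, Brca2, Atm and Qk are 23495, 12899, 10724, 9819 and 8547 bp, while those of Taf15 and Fos, also higher in value, are 2068 and 2108 bp. The proteasome list has a median of 1851 bp and of 281 FPKM. Stress response targets and tRNA synthetases lie nearer all tested genes, with 2617 and 3065.5 bp and 24.3 and 25 FPKM. The part of length in the differences of these genes was not tested.

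Malat1, a long noncoding RNA kept in the nucleus, stood at 247, 301 and 744 FPKM at 3 months and at 731, 1039 and 6094 at 6 months, and in KO at 278, 255 and 621 and at 760, 506 and 2626. It was highest in library 3 of each of the 4 groups and was chosen after its values were seen.

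Markers of surface and oviduct epithelium were high in different libraries. Krt8, a keratin of simple epithelia, stood at 197 FPKM in 3-month library 2 and at 8.35 to 31.2 in the other 5 wild-type libraries, and Krt18, its partner, at 52.2 and at 4.58 to 19.5. Krt7, Krt19, Upk1b, Upk3b and Msln were listed at 0 in 3-month library 2 and stood between 5.55 and 18.8 FPKM in 6-month libraries 1 and 3. In each of these 2 libraries 10 of the 12 markers in the table reached 1 FPKM, against 3 or 4 in the other 4 libraries. Irf1, an interferon-induced transcription factor, stood at 4.88, 9.29 and 54.2 FPKM at 3 months and at 79.4, 75.7 and 19.8 at 6 months. Its lowest values were in 3-month libraries 1 and 2, where Fos was also lowest.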
